A study of Mus musculus with 4 samples.

Results

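The genes described here are 38 genes of the contractile apparatus of skeletal muscle, followed in RNA from whole mouse eyes after a light exposure. They form a list of named genes for sarcomere proteins and for the calcium and energy supply of the muscle fibre. The list sets no threshold on measured values, but it was drawn up with earlier results of these data known. All 38 were found among the 22558 listed genes. With a mean of at least 1 FPKM over the 4 samples, 37 of them passed the filter on low values, and Myom2 did not. FPKM is a count of mapped fragments scaled for transcript length and for the size of the library, so levels can be set side by side between genes.

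Each of the 4 samples came from the eyes of 3 mice, aged 6 weeks, of the genotype Abca4-/-Rdh8-/-. These mice lack a retinaldehyde flippase of photoreceptor discs and a retinol dehydrogenase of photoreceptors, and all samples share both deletions, the unexposed one included. Both deleted genes were still listed above 0 in every sample, Abca4 at 34.3 to 56.3 FPKM and Rdh8 at 10.5 to 14.2 FPKM. Which exons are deleted is not stated, so these levels do not check the genotype. The samples were unexposed eyes (CON) and eyes taken 3 h (LE3), 24 h (LE24) and 7 days (LE7) after light exposure. The series was designed to find genes whose expression differs after light. The labels call the tissue whole eye, while the extraction protocol speaks of retinas, and lens genes held 24.1%, 20.7%, 24.6% and 23.6% of all FPKM in the unexposed, 3 h, 24 h and 7-day samples. Only 1 value per gene and condition was deposited, so no difference below has a replicate check, no test was run, and pooled eyes cannot be told apart from averaged libraries. The approximate depth, read from single-fragment values of olfactory receptor genes, was 23500000, 22800000, 30400000 and 41100000 fragments in the unexposed, 3 h, 24 h and 7-day samples. The 7-day sample stood apart in carrying RNA of the Y chromosome: Ddx3y was at 6.59 FPKM there and at most at 0.00528 FPKM in the other samples. Xist, the RNA of the inactive X chromosome of females, was at 37.1 FPKM in the same sample and at 47.2 to 53.8 FPKM in the others, so the 7-day sample held RNA of both sexes. The sex make-up of the sample therefore cannot be told apart from time in any comparison at 7 days.

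A skeletal muscle fibre shortens when myosin of the thick filament pulls on actin of the thin filament. Calcium released from the sarcoplasmic reticulum binds troponin, which sits with tropomyosin on the actin filament and thereby permits the pull. Most parts of this machine exist as fast and slow forms made from separate genes, and embryonic and perinatal myosins are forms of developing muscle. The eye has no skeletal muscle inside its wall. The extraocular muscles insert on the sclera, keep embryonic myosin into adult life and also make a myosin of their own, encoded by Myh13. In rodents, Myh13 protein is known to lie mainly in the middle of these fibres and embryonic myosin towards their ends.

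To show the sequence next to these genes, RefSeq promoter windows of build GRCm38.p6 are printed, each running from 250 bases before to 50 bases after the annotated start. Acta1, Myl1 and Tnnt1 are shown as the most abundant shared, fast and slow members with an entry. The fast Myh4, the embryonic Myh3 and the extraocular Myh13 are shown as the leading fast, the embryonic and the extraocular myosin heavy chain, a choice made after their values were seen. The windows lie at chr8:123894726-123895025 on the minus strand for Acta1, chr1:66945007-66945306 on the minus strand for Myl1 and chr7:4515926-4516225 on the minus strand for Tnnt1. Those of the myosins lie on the plus strand at chr11:67237562-67237861 for Myh4, chr11:67078050-67078349 for Myh3 and chr11:67326853-67327152 for Myh13. The deposited values were made on the mm9 build, so these coordinates belong to the sequences only. Capitals mark TATAAA, the CArG box (the site of serum response factor) and the MEF2 site (the site of myocyte enhancer factor 2), searched on both strands.
Acta1: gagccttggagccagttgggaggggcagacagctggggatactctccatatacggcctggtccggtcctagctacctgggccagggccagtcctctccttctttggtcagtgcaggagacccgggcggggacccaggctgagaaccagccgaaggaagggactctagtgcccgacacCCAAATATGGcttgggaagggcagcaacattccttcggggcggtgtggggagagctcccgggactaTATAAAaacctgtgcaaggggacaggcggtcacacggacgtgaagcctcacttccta
Myl1: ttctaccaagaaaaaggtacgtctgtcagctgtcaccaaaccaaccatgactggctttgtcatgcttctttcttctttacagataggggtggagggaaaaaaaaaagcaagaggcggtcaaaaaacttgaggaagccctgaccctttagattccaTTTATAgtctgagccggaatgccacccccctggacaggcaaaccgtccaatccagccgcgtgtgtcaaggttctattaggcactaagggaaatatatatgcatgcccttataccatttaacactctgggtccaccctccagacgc
Tnnt1: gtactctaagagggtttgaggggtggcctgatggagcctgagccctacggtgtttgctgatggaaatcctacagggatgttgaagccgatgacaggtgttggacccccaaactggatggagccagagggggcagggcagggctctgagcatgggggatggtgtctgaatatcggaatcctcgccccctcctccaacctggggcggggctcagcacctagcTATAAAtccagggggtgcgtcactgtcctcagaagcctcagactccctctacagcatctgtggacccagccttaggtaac
Myh4: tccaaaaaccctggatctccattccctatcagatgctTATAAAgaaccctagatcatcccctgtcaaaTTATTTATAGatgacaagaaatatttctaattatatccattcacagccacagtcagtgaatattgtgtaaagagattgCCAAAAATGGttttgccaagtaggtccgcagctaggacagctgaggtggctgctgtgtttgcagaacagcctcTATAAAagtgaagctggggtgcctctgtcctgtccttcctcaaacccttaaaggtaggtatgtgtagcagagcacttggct
Myh3: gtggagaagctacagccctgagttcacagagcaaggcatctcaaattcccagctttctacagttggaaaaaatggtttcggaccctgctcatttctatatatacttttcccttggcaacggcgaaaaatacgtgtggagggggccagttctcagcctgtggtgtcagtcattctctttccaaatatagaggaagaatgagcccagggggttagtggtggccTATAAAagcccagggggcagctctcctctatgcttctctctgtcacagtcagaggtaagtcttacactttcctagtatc
Myh13: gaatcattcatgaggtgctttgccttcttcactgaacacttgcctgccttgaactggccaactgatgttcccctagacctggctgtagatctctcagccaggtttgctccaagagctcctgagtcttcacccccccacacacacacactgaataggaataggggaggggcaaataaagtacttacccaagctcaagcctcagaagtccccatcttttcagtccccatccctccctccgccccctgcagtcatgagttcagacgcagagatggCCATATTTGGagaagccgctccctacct
TATAAA began 30, 31 and 29 bases before the start in Tnnt1, Myh4 and Myh3. Acta1 had a CArG box 73 bases before the start and TATAAA 7 bases before it, and Myl1 had TATAAA on the reverse strand 95 bases before the start. Myh4 held every motif marked, with a MEF2 site 182 bases before the start that contains a TATAAA on the reverse strand. Myh13 had no TATAAA in this window, and its CArG box lies behind the start. The annotated start of Myh13 falls on the letters atg, which open a reading frame without a stop up to the end of the window. This start may therefore be the start codon, and the window may not be a promoter. The missing TATAAA thus says nothing about the promoter of Myh13, and its CArG match lies within that frame.

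RefSeq windows were found for 31 members, 37 windows in all, since a few genes have several starts. A CArG box was present in 7 of the 37 windows (18.9%), against 1.63% of the 32851 windows of all genes. The 6 members with one were Acta1, Ldb3, Myh13, Myh4, Myl3 and Myom1. The match of Myh13 lies in the reading frame named above and may be coding sequence. The MEF2 site was present in 4 windows (10.8%), those of Myh1, Myh4, Myh8 and Ttn, against 3.19% of all windows. TATAAA was present in 9 windows (24.3%), against 13.6% of all. The E-box CANNTG, the site of the MyoD family, was present in 31 windows (83.8%), against 72.3% of all. These matches describe letters and show no binding.

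Skeletal muscle transcripts were present in every sample at appreciable levels. Summed over the 38 genes, they held 0.524% of all FPKM in unexposed eyes, 0.526% at 3 h, 0.326% at 24 h and 0.429% at 7 days. The share at 24 h was thus 0.622 of the unexposed share, and those at 3 h and 7 days were 1.00 and 0.819 of it. Without lens and small RNA genes in the sum, the shares were 0.829%, 0.857%, 0.527% and 0.704%. Because a share of FPKM counts transcripts and not bases, a share weighted by length was also computed. Each FPKM value was multiplied by the coding length, and genes without a coding length, such as small RNA genes, were left out of the sum. This weighted share came to 1.21%, 1.09%, 0.679% and 0.968%, and it is not a share of all fragments. Apart from this share, Ttn alone was estimated from the approximate depth to hold 46387 fragments in unexposed eyes. In whole-eye RNA, less muscle tissue and less of these RNAs per fibre cannot be told apart.

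The most abundant members were a light chain of myosin and actin. Myl1, the fast essential light chain of myosin, was at 406, 467, 256 and 366 FPKM in the unexposed, 3 h, 24 h and 7-day samples, where it ranked 173rd, 167th, 269th and 202nd of all listed genes. Acta1, skeletal alpha-actin, was at 387, 417, 239 and 327 FPKM. At the other end, Myom2, the M-protein of the M-line, was at 0.531, 0.560, 0.457 and 0.307 FPKM. Both leading genes were lowest at 24 h, as were 36 of the 38 members. Tcap was lowest in unexposed eyes and Myom2 at 7 days.

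**Figure D1:**
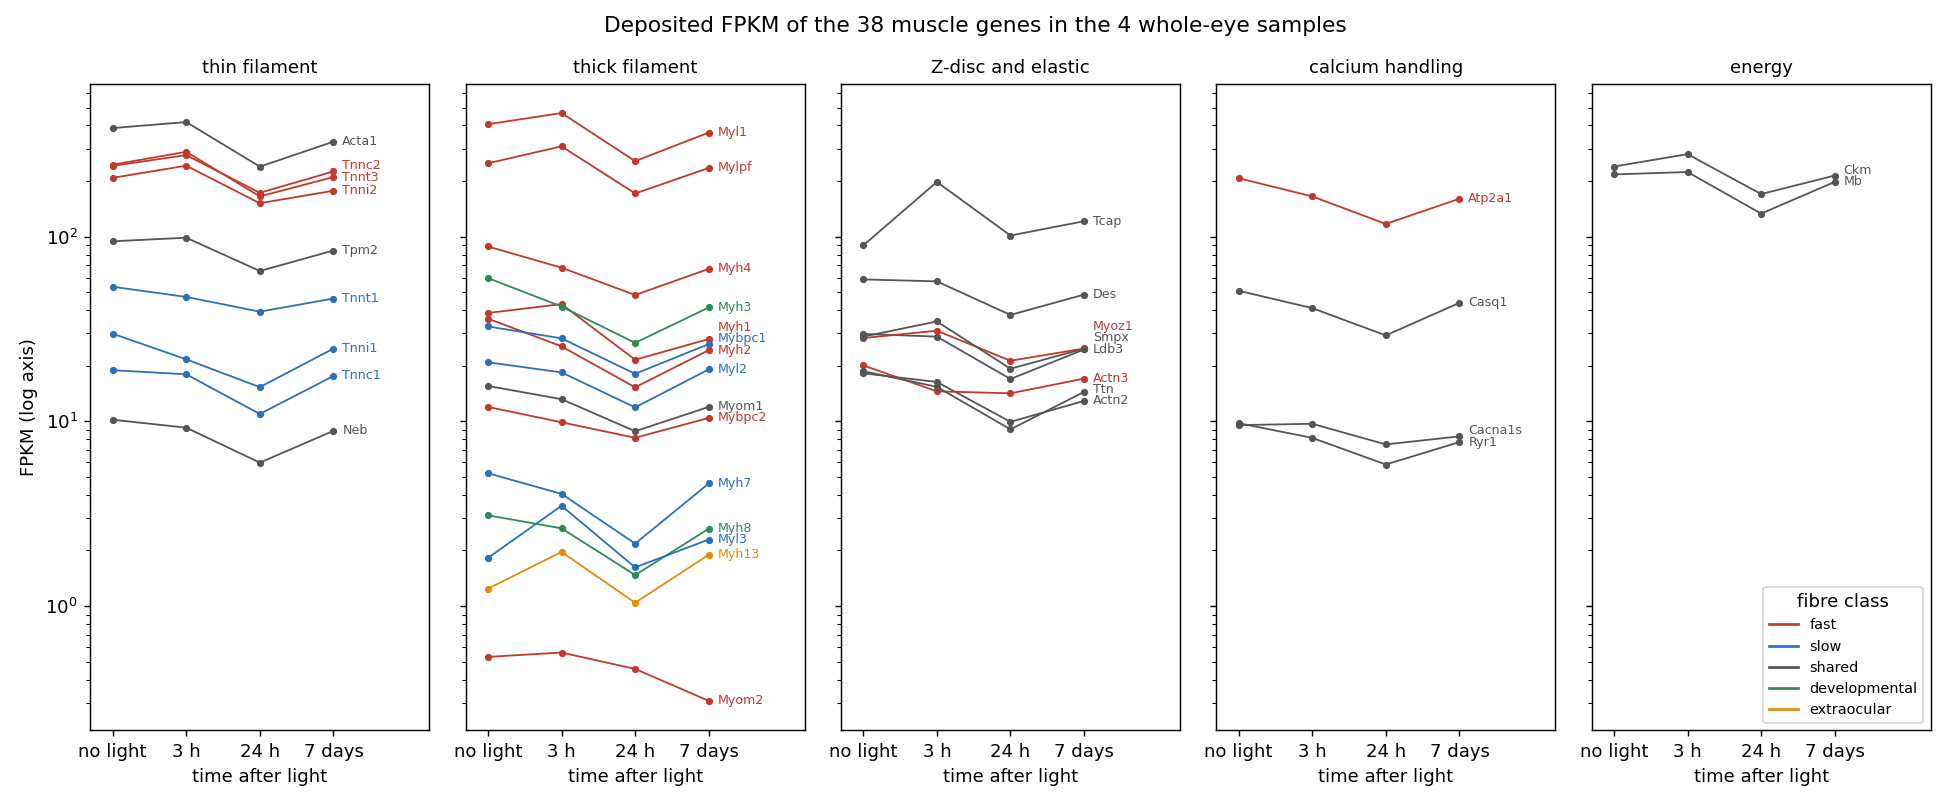
Deposited FPKM of each of the 38 genes (log axis) in the unexposed eyes and at 3 h, 24 h and 7 days after light, in panels by role and coloured by fibre class, 1 value per point and no error bars. Most lines dip at 24 h. Tcap peaks at 198 FPKM at 3 h.

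At 24 h against unexposed eyes, nearly all muscle genes were lower. Differences are given as log2(FPKM + 1) in one sample minus that in the other, and 2 call rules were used, an absolute difference of at least 1 and of at least 0.5. Of the 37 members that passed the filter, 36 were below 0 (48.6% of the 14194 genes kept) and 27 were lower by at least 0.5, against 2.94% of all genes kept. The 2 members lower by at least 1 were Myh2 and Myh3, against 0.359% of all genes kept, and no member was higher by at least 0.5 or 1, against 2.71% and 0.747% of all genes kept. The members' median was -0.68, and that of all genes kept was 0.01. Values of the members ran from -1.18 for Myh2 to 0.18 for Tcap, the only member above 0, where 51.3% of all genes kept lay.

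At 3 h against unexposed eyes, the members were split, with 16 above 0 and 21 below 0 and a median of -0.07. Of all genes kept, 54.1% were above and 45.7% below 0, with a median of 0.02. Tcap was the 1 member higher by at least 1, against 0.550% of all genes kept. At the 0.5 rule Myl3 joined it, against 2.56% of all genes kept. Myh3 was the 1 member lower by at least 0.5, against 1.44% of all genes kept, and none was lower by at least 1, against 0.240%.

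At 7 days against unexposed eyes, 34 members were below 0 with a median of -0.21, against 49.1% of all genes kept, whose median was 0.00. Myh2 and Myh3, at -0.55 and -0.52, were lower by at least 0.5, against 0.986% of all genes kept. No member was lower by at least 1, against 0.190%, or higher by at least 1 or 0.5, against 0.409% and 1.19%. The 3 members above 0 were Tcap (0.43), Myh13 (0.37) and Myl3 (0.22), against 50.7% of all genes kept. These comparisons share the unexposed sample, so their differences are not independent.

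Successive samples were also set against each other. At 24 h against 3 h, all 37 members were below 0, against 52.5% of all genes kept, and the members' median was -0.63. Of them 28 were lower by at least 0.5, against 3.09% of all genes kept. None was lower by at least 1 (0.437%), above 0 (47.3%) or higher by at least 0.5 or 1 (1.92% and 0.514%). At 7 days against 24 h, all 37 were above 0, against 48.5% of all genes kept, and the members' median was 0.45. Of them 15 were higher by at least 0.5, against 1.66% of all genes kept. None was higher by at least 1 (0.296%), below 0 (51.4%) or lower by at least 0.5 or 1 (1.97% and 0.514%). Both share the 24 h sample.

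**Figure D2:**
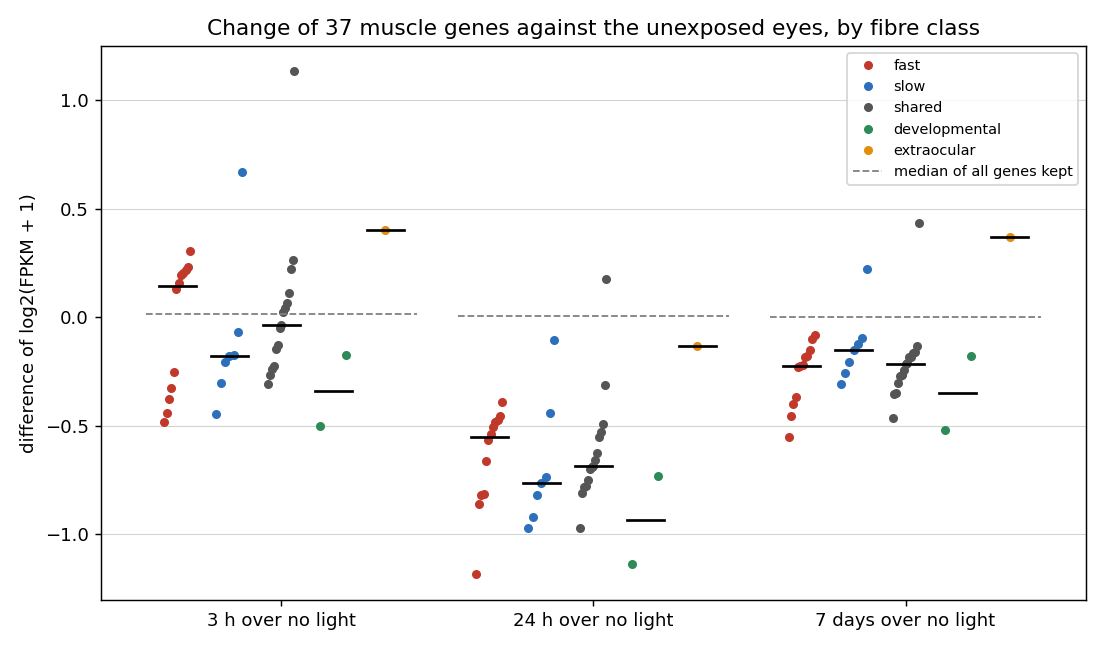
Difference of log2(FPKM + 1) from unexposed eyes for the 37 muscle genes that passed the filter, 1 point per gene, grouped by fibre class at 3 h, 24 h and 7 days. Black bars are class medians and dashed lines the median of all genes kept. At 24 h 1 point, Tcap at 0.18, lies above 0.

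Among the genes of the thin filament, fast forms exceeded slow forms in every sample. Tnnc2, fast troponin C, which binds calcium, was at 242, 276, 173 and 225 FPKM in the unexposed, 3 h, 24 h and 7-day samples. Its slow and cardiac counterpart Tnnc1 was at 18.9, 18.0, 11.0 and 17.6 FPKM. The fast form therefore made up 92.7% to 94.0% of troponin C transcripts. Tnni2, fast troponin I, the inhibitory subunit, was at 208, 242, 152 and 177 FPKM. Slow Tnni1 was at 29.8, 21.7, 15.3 and 24.8 FPKM, which left the fast form at 87.5%, 91.8%, 90.8% and 87.7% of the pair. Tnnt3, fast troponin T, which anchors the complex on tropomyosin, was at 245, 288, 165 and 210.1 FPKM. Slow Tnnt1 was at 53.6, 47.2, 39.2 and 46.2 FPKM. The pair kept 80.8% to 85.9% of fast form.

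Tpm2, beta-tropomyosin, which smooth muscle also makes, was at 94.3, 98.7, 65.2 and 84.1 FPKM. Neb, the giant nebulin that runs along the actin filament, was at 10.2, 9.24, 5.98 and 8.88 FPKM. All 9 thin filament genes were below 0 at 24 h against unexposed eyes, from -0.92 for Tnni1 to -0.44 for Tnnt1. At 3 h against unexposed eyes, 5 of the 9 were above 0, namely Acta1, Tpm2 and the 3 fast troponins, with at most 0.23 for Tnnt3.

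In the thick filament, fast and embryonic myosin heavy chains were the abundant ones. Myh4, the fast 2B chain, led with 88.5, 67.9, 48.3 and 66.9 FPKM in the unexposed, 3 h, 24 h and 7-day samples. Next in the unexposed, 24 h and 7-day samples came Myh3, the embryonic chain, with 59.7, 41.8, 26.6 and 41.3 FPKM at the 4 points. Both were lowest at 24 h. Myh1, the fast 2X chain, was at 38.6, 43.1, 21.6 and 27.9 FPKM, just above Myh3 at 3 h. Myh2, the fast 2A chain, was at 36.0, 25.5, 15.3 and 24.3 FPKM. The remaining chains were far lower. Myh7, the slow chain that the heart also makes, was at 5.24, 4.05, 2.18 and 4.61 FPKM. Myh8, the perinatal chain, was at 3.10, 2.63, 1.47 and 2.62 FPKM.

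Myh13, the chain that names extraocular muscle, was the least abundant of the 7, at 1.24, 1.96, 1.04 and 1.90 FPKM. These values correspond to roughly 169, 260, 184 and 453 fragments, for which counting alone gives an error of 4.70% to 7.69%. Myh3 was 48.1, 21.3, 25.5 and 21.8 times as abundant as Myh13. It was 19.2, 15.9, 18.1 and 15.8 times as abundant as Myh8, the other developmental chain.

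The make-up was also expressed as shares of the summed heavy chains, which do not depend on the amount of muscle in a sample. The 3 fast chains held 70.2% in unexposed eyes, 73.0% at 3 h, 73.1% at 24 h and 70.2% at 7 days. Myh3 held 25.7%, 22.4%, 22.8% and 24.4%, and Myh13 0.534%, 1.05%, 0.895% and 1.12%. The share of Myh13 was thus higher in every sample after light than in unexposed eyes, by more than its counting error. Counting error leaves out fragments that also fit the far more abundant chains, and their part in this difference was not tested. Within the fast chains, Myh1 reached its highest share at 3 h, 23.1%, against 16.6% in unexposed eyes, while Myh2 held 13.6% at 3 h against 15.5% in unexposed eyes. Without replicates, whether shifts of this size exceed the spread between animals is not known.

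These chains resemble each other, and 6 of them (Myh3, Myh2, Myh1, Myh4, Myh8 and Myh13) lie together on chromosome 11. Of all windows of 50 bases in the longest GENCODE transcript, 26.7% of those of Myh1 recurred exactly in another of the 7 transcripts, and 19.7% in Myh2 itself. The figure was 26.9% for Myh2, 21.4% for Myh8, 18.9% for Myh4, 8.45% for Myh13, 4.81% for Myh3 and 0.210% for Myh7. How fragments that fit several of these genes were divided by the authors is not stated. By this measure Myh1 and Myh2 overlap most and Myh3 and Myh7 least. The measure does not weigh abundance. Of the windows of Myh8, 11.8% recur in the far more abundant Myh2, and 2.83% of those of Myh3 recur in the scarce Myh13. The low values of Myh8 and Myh13, and ratios to them, may therefore be the least secure, which was not tested.

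**Figure D3:**
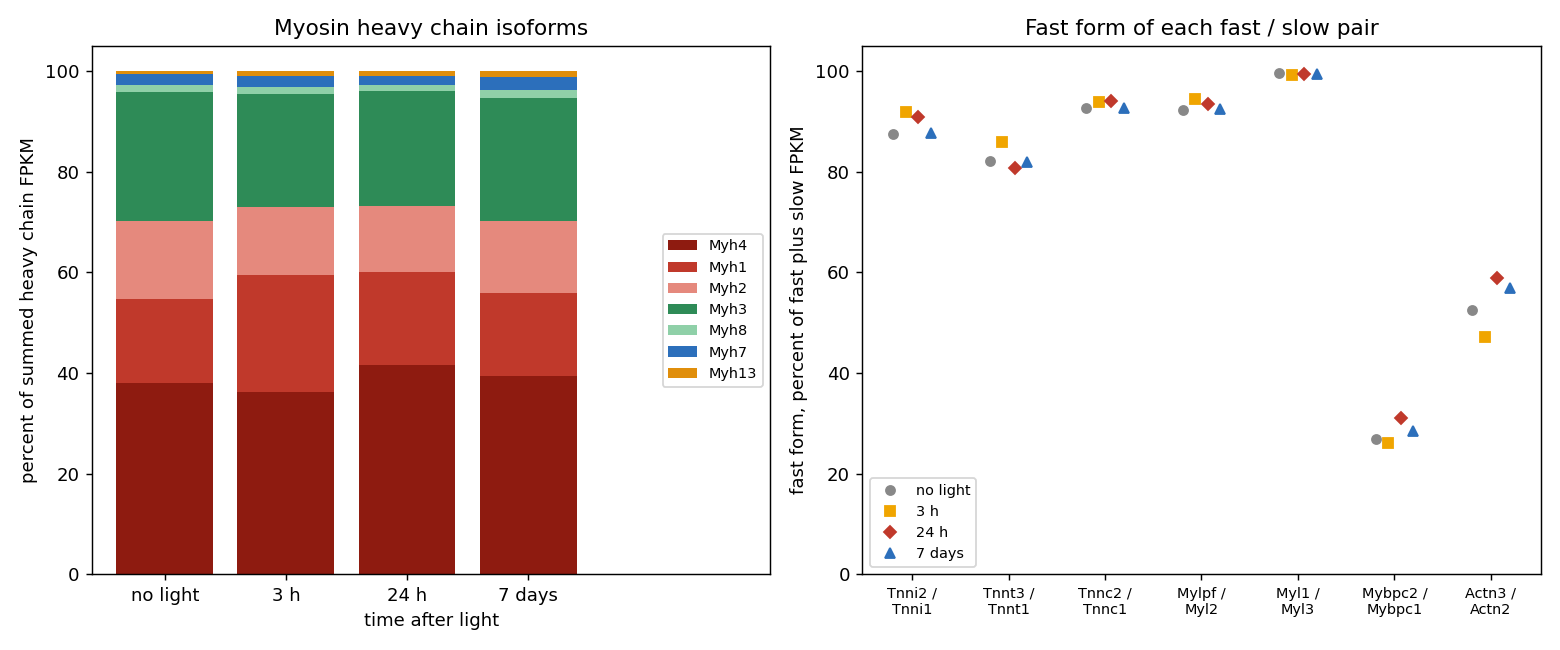
Left, stacked bars of the 7 myosin heavy chains as percent of their summed FPKM in each sample. Right, the fast form as percent of its pair, 1 point per sample and no error bars. The partner is a slow form except for Actn2, which all fibres make. Myh3 holds 22.4% to 25.7% in every bar, and Mybpc2 is the fast form with the lowest share of its pair, 26.0% to 31.1%.

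The light chains followed the same fast pattern. Mylpf, the fast regulatory light chain, was at 249, 308, 171 and 236 FPKM, and Myl2, its slow and ventricular counterpart, at 20.9, 18.4, 11.9 and 19.1 FPKM. Myl3, the slow and ventricular essential light chain, was at 1.82, 3.49, 1.62 and 2.29 FPKM, so Myl1 made up 99.3% to 99.6% of that pair. The higher Myl3 value at 3 h rested on about 49 fragments, against about 26 in unexposed eyes, with counting errors of 14.3% and 19.6%.

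Myosin-binding protein C did not follow the fast pattern in any sample. Mybpc1, the slow-type form, was at 32.6, 28.1, 18.1 and 26.2 FPKM and exceeded the fast-type Mybpc2, at 11.97, 9.88, 8.15 and 10.4 FPKM, in every sample. The fast form held 26.8%, 26.0%, 31.1% and 28.5% of the pair. Mybpc1 is known to be made in fast fibres as well, so its name does not assign these transcripts to slow fibres. Myom1, myomesin of the M-line, was at 15.5, 13.2, 8.84 and 11.97 FPKM. At 24 h against unexposed eyes, all 14 thick filament genes that passed the filter were below 0, with a median of -0.76.

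At the Z-disc, where thin filaments of neighbouring sarcomeres are joined, Tcap lay furthest of all members from their median in each comparison with unexposed eyes. Tcap encodes telethonin, a cap that links titin molecules at the Z-disc. It was at 89.6, 198, 101.4 and 121 FPKM in the unexposed, 3 h, 24 h and 7-day samples. The 3 h value was 2.21 times the unexposed one, a log2 difference of 1.13 where the members' median was -0.07. Tcap stayed above the members' median by 0.86 at 24 h and 0.64 at 7 days, and it was highest at 3 h and lowest in unexposed eyes. About 2255 fragments underlay the 3 h value and 1055 the unexposed value.

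The other 7 Z-disc and elastic filament genes were all lowest at 24 h. Actn2, an alpha-actinin of all fibres and of the heart, was at 18.2, 16.3, 9.94 and 12.9 FPKM. Actn3, the alpha-actinin of fast fibres, was at 20.1, 14.5, 14.2 and 17.0 FPKM, and its value at 24 h differed from that at 3 h by only -0.03. Actn3 was thus already near its 24 h level at 3 h. It made up 52.5%, 47.1%, 58.8% and 56.9% of the pair with Actn2, so neither form clearly led. Ttn, the giant spring titin, was at 18.7, 15.4, 9.05 and 14.4 FPKM. Des, desmin, an intermediate filament that smooth muscle shares, was at 58.7, 57.3, 37.7 and 48.6 FPKM. Ldb3, a PDZ and LIM protein of the Z-disc, was at 29.8, 28.8, 16.9 and 24.5 FPKM, and Myoz1, which binds calcineurin there, at 28.2, 30.9, 21.3 and 24.8 FPKM. Myoz1 was slightly above its unexposed level at 3 h and Ldb3 slightly below. Smpx, a small protein of striated muscle, was at 28.8, 34.7, 19.3 and 24.7 FPKM.

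The calcium handling genes were lower at each time after light except for Cacna1s. Atp2a1, the fast-fibre calcium pump SERCA1, was at 207, 165, 117 and 160.4 FPKM. Casq1, the calcium store protein calsequestrin, was at 50.9, 41.0, 29.2 and 43.8 FPKM. Both were between the unexposed and the 24 h level at 3 h and at 7 days. Ryr1, the calcium release channel, was at 9.77, 8.14, 5.84 and 7.72 FPKM. Cacna1s, the voltage sensor that opens Ryr1, was at 9.54, 9.70, 7.50 and 8.29 FPKM, and its difference at 24 h against unexposed eyes was -0.31, compared with -0.66 for Ryr1.

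Of the energy genes, Ckm, muscle creatine kinase, was at 239, 279.7, 170.0 and 214 FPKM. Mb, myoglobin, the oxygen store of oxidative fibres and heart, was at 217, 224, 133 and 198 FPKM. Both were lowest at 24 h.

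Within the set, the difference at 3 h went with the length of the gene's coding sequence. Of the 19 members with a coding length under 1500 bases, 13 were higher at 3 h than in unexposed eyes, with a median of 0.13. Of the 14 members of at least 3000 bases, 3 were higher (Myh13, Myh1 and Cacna1s), with a median of -0.23. All protein-coding genes kept with a coding length had medians of 0.02 and 0.00 in the same length classes. Spearman's rho between coding length and the difference was -0.53 over the 37 members and -0.08 over the 12374 protein-coding genes kept that have a coding length, given as a description across genes that share 2 samples. At 24 h and 7 days against unexposed eyes, rho was -0.41 and -0.56 over the members and -0.21 and -0.30 over all these genes. RNA integrity could not be read from these values, and its part in the difference was not tested.

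Short fast and short slow genes also differed at 3 h, while short shared genes went mostly with the fast ones. All 6 fast members under 1500 bases, Tnni2, Tnnt3, Tnnc2, Myl1, Mylpf and Myoz1, were higher at 3 h than in unexposed eyes, from 0.13 to 0.30. Of the 5 slow members under 1500 bases, 4 were lower, Tnni1 the most at -0.44, and only Myl3 was higher. Of the 4, Tnnc1 lay at -0.07, within its counting error of 7.11% at 3 h and 6.82% in unexposed eyes. Myl2 lay at -0.17, with counting errors of 6.73% and 6.21%. Of the 8 shared members under 1500 bases, 6 were higher at 3 h, with a median of 0.09. At 24 h against unexposed eyes, the short fast members had a median of -0.51 and the short slow ones of -0.74. At 7 days the medians were -0.17 and -0.12. The difference between the classes was not tested, as there are no replicates.

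**Figure D4:**
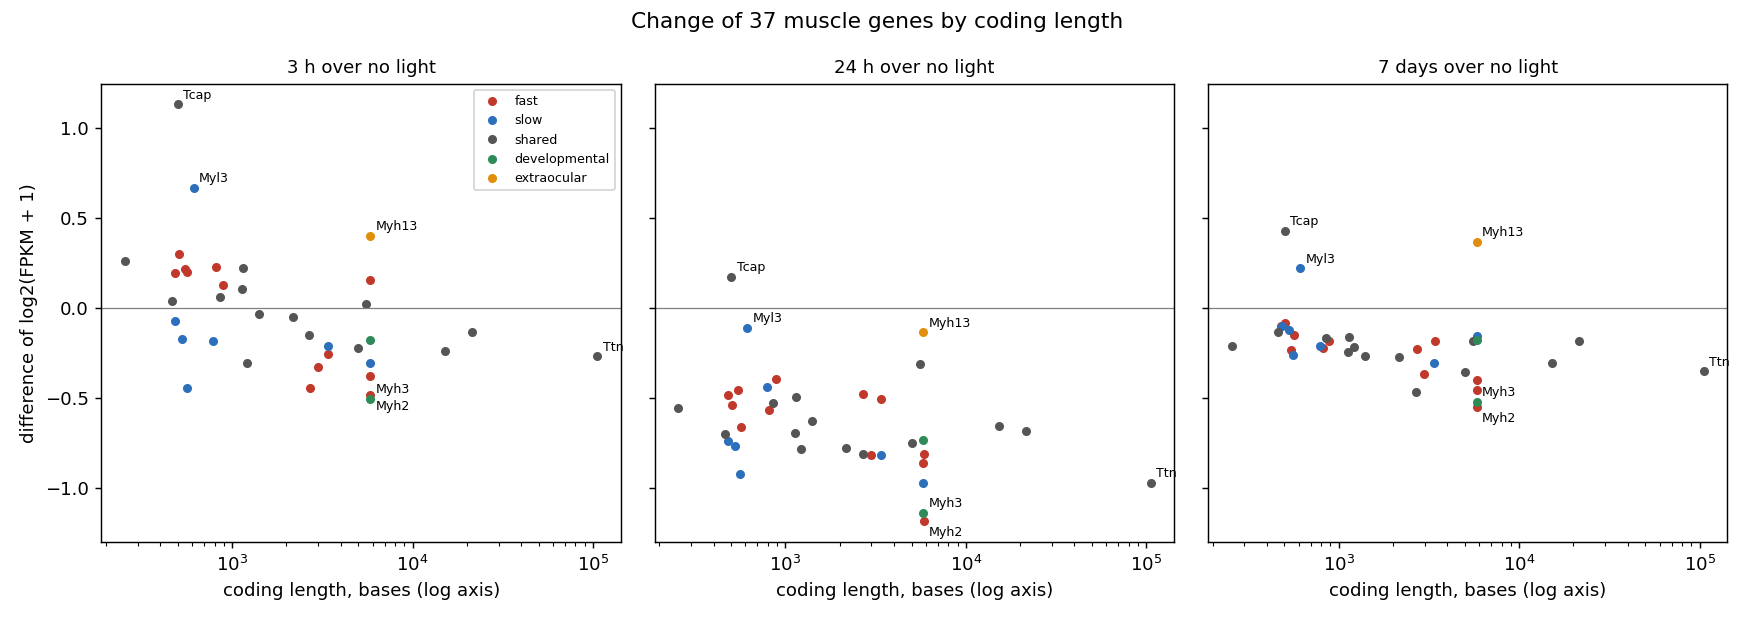
Difference of log2(FPKM + 1) from unexposed eyes against coding length (log axis, longest GENCODE coding sequence) for the 37 members, coloured by fibre class, at 3 h, 24 h and 7 days. At 3 h short genes lie higher than long ones, with medians of 0.13 and -0.23 under 1500 and from 3000 bases. Tcap, Myl3 and Myh13 lie above their neighbours in each panel.

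Other genes of skeletal muscle, from 4 lists written with earlier results of these data known, were compared next. Of 60 such genes, all listed, 53 passed the filter. At 24 h against unexposed eyes, 49 of the 53 were below 0 and 25 were lower by at least 0.5, with a median of -0.48. Of all genes kept, 48.6% were below 0 and 2.94% lower by at least 0.5, which is also the background of the counts at 24 h that follow. At 3 h the median was -0.05 and at 7 days -0.19. The 2 genes higher by at least 0.5 at 3 h, as Tcap was, were Lmod2 (0.87) and Myog (0.51), against 2.56% of all genes kept. Calcium handling genes beyond the members had a median of -0.55 at 24 h, with 8 of 13 lower by at least 0.5. Pvalb, the calcium buffer parvalbumin of fast fibres, which retinal neurons also make, was at 164, 176, 121 and 157 FPKM. Other sarcomere and Z-disc genes had a median of -0.56, with 13 of 23 lower by at least 0.5. Among them Csrp3, a LIM protein of the Z-disc, was at 16.5, 14.4, 7.57 and 9.74 FPKM. It was the only one of the 53 lower by at least 1 at 24 h against unexposed eyes, against 0.359% of all genes kept.

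Genes of muscle metabolism had a median of -0.44 at 24 h against unexposed eyes, with 2 of 9 lower by at least 0.5. Their most abundant member was Eno3, muscle enolase, at 159, 153, 108 and 134 FPKM. Muscle regulators and neuromuscular junction genes had a median of -0.19, with 2 of 8 lower by at least 0.5. Myog, myogenin, was at 0.709 FPKM at 24 h, against 2.54 FPKM at 3 h, the only one of these 8 lower by at least 1 at 24 h against 3 h. Of the 53 other muscle genes, 4 were lower by at least 1 in that comparison, against 0.437% of all genes kept. The other 3 were the sarcomere and Z-disc genes Xirp1 (-1.08), Lmod2 (-1.02) and Klhl40 (-1.01).

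Some members are also made by heart or smooth muscle, so markers of both tissues were examined. Myh6, Myl7, Mybpc3, Nppa, Nppb and Tnni3, which define heart muscle, were all under 1 FPKM in every sample. Tnnt2, cardiac troponin T, was at 3.48 FPKM at 24 h, against 1.47 FPKM in unexposed eyes, a direction opposite to that of the members. Smooth muscle genes were all present, led by Acta2 at 112, 93.9, 101.8 and 116 FPKM, and summed to 297, 252, 253 and 292 FPKM. The smooth muscle sum at 24 h was 0.853 of the unexposed one, while that of the 38 members was 0.655 of it. The 23 members that passed the filter and were not classed here as shared with heart or smooth muscle had a median of -0.66 at 24 h. Of them, 16 of 23 were lower by at least 0.5, against 2.94% of all genes kept. This class does not show that heart muscle makes none of the 23.

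Summed levels of genes of other cell types also differed between the same samples. The 10 rod genes summed to 13572, 11779, 8574 and 9081 FPKM in the unexposed, 3 h, 24 h and 7-day samples, so their 24 h sum was 0.632 of the unexposed one. Erythroid genes, 8 of 9 listed, summed to 257, 298, 158 and 149 FPKM. Adipocyte genes summed to 28.3, 78.9, 43.4 and 27.1 FPKM, with Fabp4, a fatty acid carrier, at 37.5 FPKM at 3 h against 12.2 FPKM in unexposed eyes. The 12 genes of connective tissue and tendon summed to 2338, 1716, 1685 and 2142 FPKM. Within them Tnmd, a tendon marker, was at 24.8, 22.8, 23.2 and 29.3 FPKM, and Col3a1, a fibrillar collagen, at 166, 76.2, 60.8 and 98.9 FPKM. Myelin genes summed to 128, 94.6, 101.5 and 73.5 FPKM. Ocular surface keratins and related genes summed to 4171, 5235, 5001 and 5149 FPKM. The part of these tissues in the difference of the muscle genes was not tested.

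**Figure D5:**
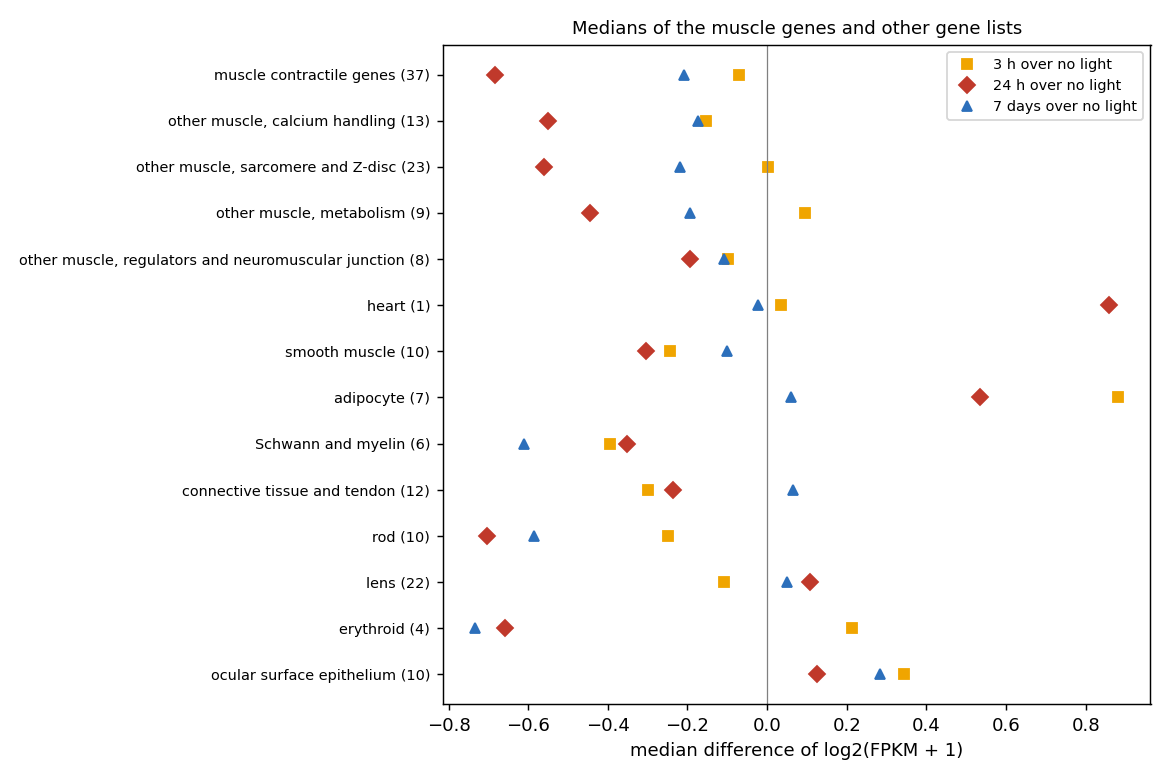
Median difference of log2(FPKM + 1) from unexposed eyes for the muscle contractile genes and 13 other gene lists at 3 h, 24 h and 7 days, with the number of genes that passed the filter in brackets (the heart list rests on Tnnt2 alone). The contractile genes lie at -0.68 at 24 h, the other muscle lists between -0.56 and -0.19 and the rod list at -0.70.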

How the data were processed

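RNA from whole eyes, 1 sample per condition, was measured by sequencing. Per the submitters' processing notes, the authors worked with Cuffdiff 2.2.1, TopHat2 and bcl2fastq 1.8.3 on the mm9 build, and the deposited table holds FPKM values. Not given in the sources used here are the annotation, the library scaling and how ambiguous fragments were assigned. The values sum to 626973, 680305, 660426 and 672004 in CON, LE3, LE24 and LE7.

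Differences were computed in Python 3.11.15 with pandas 2.3.3 as log2(FPKM + 1), a scale that understates the change of low genes. Genes with a mean of at least 1 FPKM were kept (14194 genes). Lists of genes are described by counts and medians, and the computation was tested on simulated data. The members, classes and lists were chosen with earlier results of these data known. All 38 members could be named; from the other lists, genes past a log2 difference of 1, the most abundant gene of a list and defining markers could be named. Tnmd and Nppb were named after their values were seen. Some genes of the other lists are not reported here. Gene classes came from RefSeq (99.0% of symbols matched), and coding lengths and transcripts from GENCODE M21. Fragment numbers are FPKM times coding length times the approximate depth, which is the median over 14 to 20 olfactory receptor genes seen in 1 sample. Alternatives changed the pseudocount, the filter, the scaling, the members included and the sum behind a share.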

Additional observations from a re-analysis of the deposited data

How the results depend on the processing

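No paired analysis was possible because each condition has 1 value per gene, and no replicate could be left out. The cause of the shifts below was not tested except where fewer genes were included. No median changed sign, and 290 of 332 alternative values stayed within 0.1 log2 units of a median or within 1.5 times a count or share. For counts and shares no change of direction was looked for. The members' share at 3 h ran from 0.902 to 1.07 of the unexposed one over the alternatives, so its direction was not settled. Over all alternatives the members' median ran from -0.17 to -0.04 at 3 h, from -0.72 to -0.64 at 24 h and from -0.25 to -0.21 at 7 days against unexposed eyes, from -0.68 to -0.55 at 24 h against 3 h and from 0.37 to 0.46 at 7 days against 24 h. Rescaling by the median ratio moved samples by at most 0.03 log2 units, and rescaling to the same sum without muscle, lens, erythroid, surface epithelium and small RNA genes by at most 0.07.

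A pseudocount of 0.1 gave 5 members lower by at least 1 at 24 h against unexposed eyes in place of 2 (92 of all genes kept in place of 51), 1 at 24 h against 3 h, 1 higher by at least 1 at 7 days against 24 h and 1 higher by at least 0.5 at 7 days against unexposed eyes, each in place of 0. At 3 h, 2 members were lower by at least 0.5 after the median-ratio rescaling and 4 after the same-sum rescaling, in place of 1. Rescaling shifts all genes, and their count at the 0.5 rule was not computed after it. The same-sum rescaling gave 4 members lower by at least 1 at 24 h against unexposed eyes in place of 2 (56 of all genes kept in place of 51). A mean of at least 5 FPKM left 1 member higher by at least 0.5 at 3 h. Without the 7 heavy chains, no member was lower by at least 0.5 at 3 h or 7 days, or by at least 1 at 24 h. Without members classed as shared with heart or smooth muscle, 23 of the 37 members remained, so counts fell with the set. At 24 h against unexposed eyes, 16 of 23 in place of 27 of 37 were lower by at least 0.5 (2.94% of all genes kept). At 24 h against 3 h it was 14 of 23 in place of 28 of 37 (3.09%). At 7 days against 24 h, 9 of 23 in place of 15 of 37 were higher by at least 0.5 (1.66%). At 3 h, 0 were higher by 0.5 or 1 (2.56% and 0.55% of all genes kept), and the median was -0.17. Without Tcap, Myl3 and Myh13, chosen after seeing the data, 0 were higher at 3 h by either rule. Among protein-coding genes alone, also added later, 29 genes in place of 51 were lower and 60 in place of 106 higher by at least 1 at 24 h against unexposed eyes. Without small RNA and lens genes, the members' share was 0.829%, 0.857%, 0.527% and 0.704% in CON, LE3, LE24 and LE7. As FPKM times coding length, added later and taken only over genes with a coding length, it was 1.21%, 1.09%, 0.679% and 0.968%. The share at 24 h stayed between 0.561 and 0.636 of the unexposed one. A share weighted by RefSeq protein length was not run. Depth limits the low or short genes most, with counting errors of up to 19.6% for Myl3, 13.48% for Myom2, 8.16% for Smpx, 7.88% for Tnnc1, 7.69% for Myh13 and 7.24% for Myl2.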
